A study of Mus musculus with 91 samples.

Results

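The comparison described here sets the hippocampus of APP/PS1 mice infused with a control antisense oligonucleotide (CON ASO, 13 mice) against that of APP/PS1 mice infused with the saline vehicle (PBS, 9 mice). These 22 arrays were chosen by the tissue, genotype and treatment in their labels, out of 91 arrays of hippocampus and frontal cortex. Both groups carry the same transgenes, APP and PS1 of the double transgenic Alzheimer's disease model (APPPS1 in the titles), whose expression is driven by the neuronal Thy1 promoter and leads to amyloid plaques. Osmotic pumps fed a cannula in the right lateral ventricle with 50 µg of oligonucleotide per day in 6 µL per day, for 14 days from 18 weeks of age. PBS mice carried the same pump and cannula, all mice were single housed after surgery, and the whole hippocampus of the left hemisphere, the side without the cannula, was taken at 22 weeks. No source used here gives the sequence or chemistry of the control oligonucleotide, so the contrast holds one oligonucleotide of unknown design against vehicle. The rest of the hippocampal series, which shared the estimate of spread, was 12 wild-type (WT) littermates given PBS and 12 APP/PS1 mice given an antisense oligonucleotide against CD33 (CD33 ASO).

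Antisense oligonucleotides are short, synthetic and single-stranded, and bind a matching messenger RNA so that RNase H can cut it, whereas a control strand is built to match none. Oligonucleotides infused into a ventricle spread through the cerebrospinal fluid and are taken up by many brain cells, and phagocytes take up much of the material. Besides the microglia of the tissue itself, the brain has macrophages at its borders, in the meninges, the choroid plexus and the space around vessels. Nucleic acids can be sensed by Toll-like receptors and cytosolic receptors, whose signalling induces type I interferons, and interferon-stimulated genes are the usual readout of that pathway.

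Each array read 25697 probes of an Illumina bead chip. A probe was tested where its signal stood above background (detection p under 0.05) on at least 9 hippocampal arrays, which left 14449 probes of 10042 named genes. A dim probe could meet this filter through the group where it was high, so the counts and medians of gene lists below describe the tested members alone. The CON ASO arrays detected 12987 to 13905 of all probes (median 13340) and the PBS arrays 13000 to 13629 (median 13286). Levels are given as log2 signal after normalization, and differences as CON ASO minus PBS on the log2 scale with their standard error (SE). Levels of different probes are not comparable, and in bulk tissue fewer cells of a type and less RNA per cell cannot be told apart. Of 8 tested markers of the hippocampal fields, among them Prox1 of dentate granule cells and Wfs1 and Fibcd1 of CA1, the median difference was -0.01, and those 3 were detected on all 13 CON ASO and all 9 PBS arrays. One of the 8, the dentate gene C1ql2, was higher by 0.33 ± 0.07 (adjusted p = 0.0108).

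Of the 22 arrays, 2 stood apart within their groups. CON ASO replicate 13 was the lowest CON ASO array for Gpnmb, Lgals3, Plin4, Fcna and Ms4a7, the genes of largest rise. It was not low throughout: its mean level over 21 interferon-stimulated genes was 8.29, near the top of the CON ASO range of 7.70 to 8.35. PBS replicate 6 was the highest PBS array for many microglial and interferon genes: its mean level over 14 pan-microglial markers was 9.33, against at most 8.93 on the other PBS arrays. Both arrays were kept, and values without them are given where they matter.

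Hippocampi given the control oligonucleotide differed from those given vehicle in a small share of probes. At a Benjamini-Hochberg adjusted p under 0.05 in limma, 187 probes differed (1.29% of those tested), 119 higher (0.824%) and 68 lower (0.471%) under CON ASO. They belonged to 162 named genes, and 7 probes had no gene name. Of all named genes 1.02% passed as higher and 0.597% as lower, so a count of 0 in a short gene list is near that share. By median centring in place of quantile normalization, 81.2% of the probes that passed were higher, against 63.6% here. With the chip as a block 47.4% of 323 passing probes were higher, and with the replicate number as a block 42.4% of 415, so most calls were then falls. At an unadjusted p under 0.05 there were 1928 probes. Most differences were small: 107 of the 187 were under 0.5 log2, 14 rises exceeded 1 log2, and 2 falls did. Without CON ASO replicate 13 the count was 237 (145 higher, 92 lower, 177 shared with the full set), without PBS replicate 6 it was 237 (162 higher, 75 lower, 169 shared), and without both it was 275 (182 higher, 93 lower, 173 shared). It fell to 108 without PBS replicate 4 (71 higher, 37 lower), to 115 without PBS replicate 3 (72 higher, 43 lower) and to 116 without PBS replicate 7 (75 higher, 41 lower).

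Cd33, the gene that the other oligonucleotide of the study targets, did not pass between CON ASO and PBS. Its level ran from 6.33 to 6.89 (median 6.50) in CON ASO and from 6.19 to 6.97 (median 6.46) in PBS. The groups overlapped throughout, and the difference was 0.03 ± 0.11 (95% interval -0.20 to 0.26, adjusted p = 0.943).

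The 4 genes of largest rise were Lgals3, Plin4, Fcna and Gpnmb. Lgals3 encodes galectin-3, a sugar-binding protein of activated phagocytes that gathers on damaged lysosomes. Its level ran from 7.87 to 10.57 (median 9.84) in CON ASO and from 6.94 to 8.03 (median 7.65) in PBS. All CON ASO arrays but replicate 13 lay above the highest PBS array, with the next lowest at 9.27. The difference was 2.14 ± 0.25, a 4.42-fold rise (adjusted p = 3.1e-07).

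Plin4 encodes a perilipin that coats lipid droplets. It ran from 7.06 to 9.89 (median 8.60) in CON ASO and from 5.81 to 7.41 (median 6.33) in PBS. Again 12 of 13 CON ASO arrays exceeded every PBS array, and the CON ASO arrays were spread over a wider range than for Lgals3, Gpnmb or Fcna. The rise was 2.10 ± 0.26, or 4.27-fold (adjusted p = 5.92e-07).

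Gpnmb encodes a membrane glycoprotein of phagocytes under lysosomal or lipid load. Its brighter probe ran from 9.54 to 11.54 (median 10.88) in CON ASO and from 9.02 to 9.62 (median 9.12) in PBS. The single CON ASO array within the PBS range was replicate 13, and the highest PBS array was replicate 6, without which no PBS array exceeded 9.23 and all 13 CON ASO arrays lay above. The rise was 1.68 ± 0.17, or 3.21-fold (adjusted p = 1.23e-08). The dimmer probe rose by 1.04 ± 0.16 (adjusted p = 7.11e-05).

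Fcna encodes ficolin A, a soluble pattern-recognition lectin that in the mouse is made by macrophages and starts the lectin pathway of complement. It was close to background in PBS, where 1 of 9 arrays detected it, and was detected on 12 of 13 CON ASO arrays. Its level ran from 5.30 to 7.35 (median 6.88) in CON ASO and from 4.59 to 5.73 (median 4.81) in PBS. Only replicate 13 fell within the PBS range, and the other CON ASO arrays were at 6.62 or above. The rise of 1.87 ± 0.18 (3.65-fold, adjusted p = 2.39e-09) had the smallest p of all probes in the comparison.

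**Figure D1:**
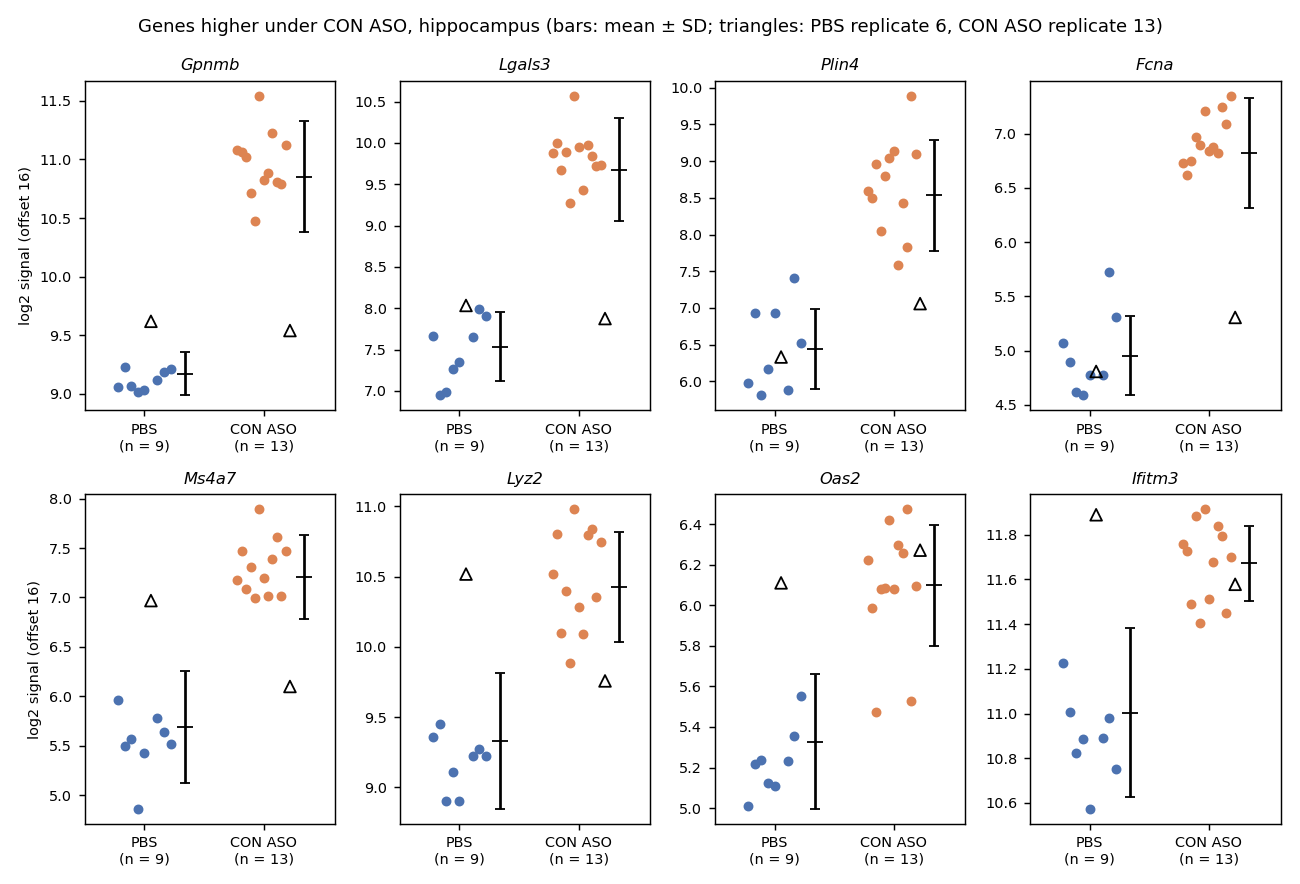
Genes higher under CON ASO in hippocampus, 1 panel per gene. Each point is 1 array (1 mouse) with the log2 signal on the vertical axis, bars give mean ± SD for PBS (n = 9) and CON ASO (n = 13), and triangles mark PBS replicate 6 and CON ASO replicate 13. For Lgals3, Plin4 and Fcna, 12 of the 13 CON ASO arrays lie above the highest PBS array.

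Fcna is one of a list of 12 border and perivascular macrophage markers, of which 11 were named on the array and 7 were tested. Fcna and Folr2 were detected mainly on CON ASO arrays, so the filter favoured them. The 7 tested were all higher, with a median of 0.58 against -0.01 over all named genes, and 4 passed (1.02% of all named genes passed as higher): Fcna, Ms4a7, Cbr2 and Folr2. Ms4a7, a membrane protein that sets border macrophages apart from microglia, ran from 6.10 to 7.89 (median 7.20) in CON ASO and from 4.86 to 6.97 (median 5.57) in PBS. The PBS array at 6.97 was replicate 6, the next was at 5.97, and without replicate 6 all 13 CON ASO arrays lay above the PBS arrays. The rise was 1.52 ± 0.18 (2.86-fold, adjusted p = 3.55e-07).

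Cbr2, a carbonyl reductase of resident macrophages, ran from 6.36 to 7.48 (median 6.70) against 5.26 to 6.55 (median 5.80) in PBS, a rise of 0.89 ± 0.15 (adjusted p = 2.93e-04). Of its CON ASO arrays, 11 exceeded every PBS array. Folr2, the folate receptor of perivascular macrophages, was detected on 10 of 13 CON ASO arrays and 1 of 9 PBS arrays and rose by 0.58 ± 0.12 (adjusted p = 0.00506). The scavenger receptors Mrc1 (0.27 ± 0.15, adjusted p = 0.467) and Stab1 (0.28 ± 0.11, adjusted p = 0.244) and the adaptor Dab2 (0.41 ± 0.20, adjusted p = 0.367) did not pass. The mean level over the 7 genes was 6.68 to 7.53 in CON ASO, 5.63 to 6.68 in PBS and 5.65 to 6.43 in WT PBS, so the CON ASO arrays sat at the top of or above both vehicle groups.

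Markers of tissue at the brain's borders were measured beside these genes. Those of the choroid plexus and ependyma had a median difference of 1.08 (15 of 16 higher, 1 passed, the chemerin gene Rarres2 at 0.36), and their mean level ran from 7.27 to 9.50 in CON ASO and from 6.55 to 9.18 in PBS. PBS arrays fell into 3 near 9.1 (replicates 1, 8 and 9) and 6 between 6.55 and 7.18, and WT PBS arrays ran from 6.70 to 9.68. Ttr, the transthyretin gene that defines choroid plexus epithelium, differed by 1.27 ± 0.50 (adjusted p = 0.225), with both groups overlapping almost entirely.

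With the choroid plexus level of each array as a covariate, 127 probes passed (76 higher, 51 lower, 105 of them among the 187). The same 4 border macrophage genes passed with that covariate, at 1.79 for Fcna, 1.41 for Ms4a7, 0.74 for Cbr2 and 0.42 for Folr2. The rises of Lgals3 (1.91), Plin4 (1.99) and Gpnmb (1.72) were also as large or nearly so. Among passing probes of the genes picked by the naming rule, 41 kept the call with the covariate and 17 lost it. It left 0 passing on the lists of nucleic acid sensing (Irf7, Myd88), antigen presentation (H2-T23), homeostatic microglia (Sparc) and monocytes and neutrophils (Lcn2). The glucocorticoid list then had 4 rises against 6, and the interneuron list 1 fall against 2. Of 15 markers of the meninges and fibroblasts, all were higher and 0 passed in limma (the proteoglycan gene Lum passed without PBS replicate 6, median 0.53, mean level 8.38 to 9.65 in CON ASO and 7.79 to 9.30 in PBS). Their part in the rise of the border macrophage genes was not tested.

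The lists for microglia themselves are set beside the share of all named genes that passed as higher, 1.02%. Of 14 pan-microglial markers 0 passed in limma, with a median of 0.12, and the mean level was 8.55 to 9.20 in CON ASO and 8.57 to 9.33 in PBS, both above the WT PBS range of 7.81 to 8.10. Without PBS replicate 6, 2 passed, the complement gene C1qc and the Fc receptor chain Fcer1g. Of 15 homeostatic markers 1 passed, the matrix gene Sparc (0.41 ± 0.11 on 1 of 2 probes, adjusted p = 0.0435). Without PBS replicate 6 Sparc passed on its other probe instead (0.36, adjusted p = 0.0375), and Tmem119, a membrane protein of microglia, passed as well (0.37, adjusted p = 0.0196).

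Of 28 genes of plaque-associated microglia, 3 passed as higher, Gpnmb, Lgals3 and Lyz2 (1.02% of all named genes did). The median was 0.10, with 20 of the 28 higher and 8 lower. Trem2, the lipid-sensing receptor of that state, differed by 0.09 ± 0.13 (adjusted p = 0.837), and Cst7, an inhibitor of cathepsins, by -0.01 ± 0.26 (adjusted p = 0.99). Both were raised by genotype, Trem2 by 1.82 (adjusted p = 6.59e-14) and Cst7 by 3.63 (adjusted p = 2.9e-14) in APP/PS1 PBS over WT PBS, a contrast in which 2.49% of probes passed and which shares the PBS arrays. Lgals3 and Plin4 did not pass between those vehicle groups, at 0.24 (adjusted p = 0.697) and 0.07 (adjusted p = 0.93). Of 14 genes of lipid-laden phagocytes 3 passed as higher (Gpnmb, Lgals3 and Plin4). Their median was 0.23, with 11 of the 14 higher and 3 lower. Without CON ASO replicate 13, the lipid-laden and the plaque-associated list each held 1 gene that passed as lower. The same held without both arrays that stood apart. Of 24 lysosomal genes (median 0.04) and 15 of cholesterol synthesis and uptake (median 0.02), 0 passed in limma. That is near the share over all named genes (1.02% higher, 0.597% lower). The cathepsin gene Ctsh passed without PBS replicate 6.

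**Figure D2:**
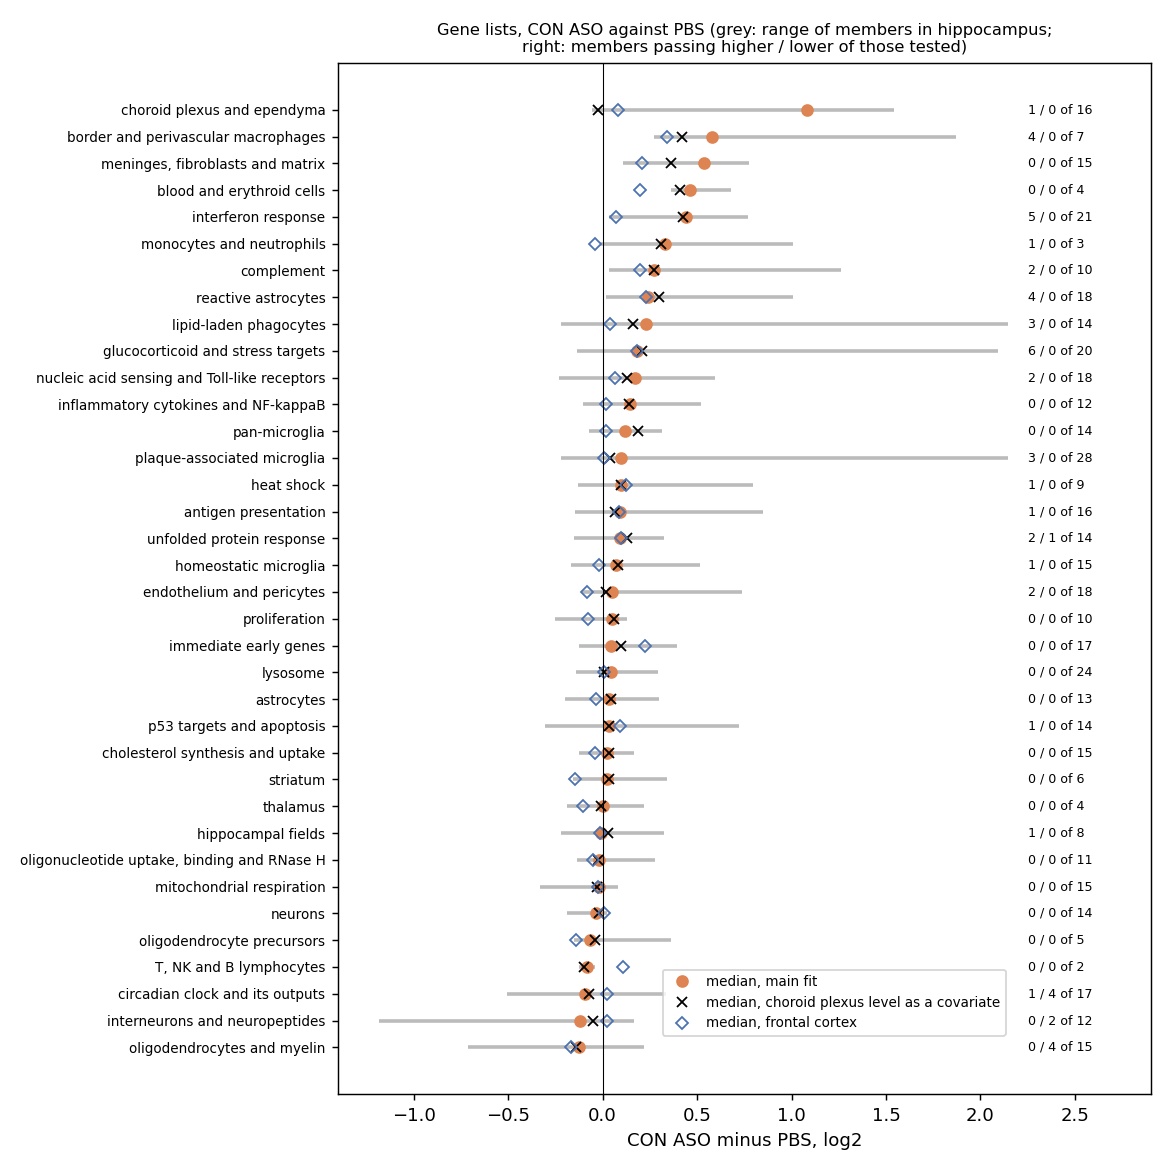
Gene lists in the CON ASO against PBS comparison. The horizontal axis is the log2 difference, circles give the median of each list in hippocampus, crosses that with the choroid plexus level as a covariate, diamonds that in frontal cortex, grey bars the range of its members in hippocampus, and the numbers at the right the members that passed higher or lower of those tested. Choroid plexus (1.08), border macrophages (0.58), meninges (0.53), blood cells (0.47) and interferon response (0.44) have the largest medians. The blood cell list rests on 4 tested genes, all higher, of which 0 passed in limma. Its mean level ran from 8.05 to 9.90 in CON ASO and from 7.92 to 8.96 in PBS.

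Other genes among the 15 largest rises are known from myeloid cells. Lyz2, lysozyme of macrophages and microglia, ran from 9.76 to 10.98 (median 10.40) against 8.90 to 10.52 (median 9.22), a rise of 1.10 ± 0.18 (adjusted p = 2.13e-04), and its other probe rose by 0.84 ± 0.18. Without PBS replicate 6 the highest PBS array was at 9.45 and all 13 CON ASO arrays lay above it on the first probe. Lyz1 rose by 1.04 ± 0.16 (adjusted p = 6.4e-05), but it is a near-identical copy of Lyz2 and the probes may not tell them apart.

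Ms4a6d, a myeloid membrane protein, rose by 1.06 ± 0.16 and 0.57 ± 0.11 on its probes (adjusted p = 3.49e-05 and 0.00259). The whey acidic protein family gene Wfdc17, a macrophage gene, was detected on 12 of 13 CON ASO and 3 of 9 PBS arrays and rose by 1.44 ± 0.23 (adjusted p = 1.24e-04). Cyp4f18, a cytochrome that inactivates leukotriene B4, was detected on all 13 CON ASO and on 1 PBS array, replicate 6, and rose by 0.94 ± 0.14 (adjusted p = 4.97e-05). Alox5ap, the partner of 5-lipoxygenase in leukotriene synthesis, rose by 0.50 ± 0.09 (adjusted p = 4.97e-04). The PBS array nearest the CON ASO group was replicate 6 for each of Lyz2, Ms4a6d, Cyp4f18 and Alox5ap.

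Fcgr4, an activating Fc receptor, ran from 7.05 to 7.91 (median 7.47) in CON ASO and from 5.76 to 8.22 (median 6.34) in PBS. Replicate 6 of PBS, at 8.22, was above every CON ASO array, while the other PBS arrays reached 6.38 and lay below all of them. The difference of 1.06 ± 0.29 passed narrowly with all arrays (adjusted p = 0.0487) and was 1.28 without PBS replicate 6 (adjusted p = 0.00475). It did not pass without CON ASO replicate 13 (adjusted p = 0.0537). Lcn2, the siderophore-binding lipocalin-2 of neutrophils and reactive astrocytes, behaved alike: it was detected on 12 of 13 CON ASO arrays (4.95 to 6.96) and on 1 PBS array, replicate 6, at 7.25. Its rise was 1.01 ± 0.26 (adjusted p = 0.0369) with and 1.29 (adjusted p = 2.39e-04) without that array. Of 15 listed monocyte and neutrophil markers only 3 were detected widely enough to test, and of 19 of lymphocytes only 2, of which 0 passed in limma.

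Of 10 complement genes, all were higher and 2 passed (1.02% of all named genes passed as higher). C2, the serine protease of the classical and lectin pathways, ran from 7.78 to 8.84 (median 8.19) in CON ASO and from 5.41 to 8.71 (median 6.97) in PBS. The highest PBS array was replicate 6; without it the PBS arrays reached 7.65 and all 13 CON ASO arrays lay above. The rise was 1.26 ± 0.23 (2.40-fold, adjusted p = 0.00139). Serping1, the C1 inhibitor, rose by 0.92 ± 0.18 (adjusted p = 0.00207).

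Of 23 interferon-stimulated genes named on the array 21 were tested. All 21 were higher, with a median of 0.44, where 4692 of all 10042 named genes were higher. Against 1.02% of all named genes passing as higher, 5 of the list passed (Ifitm3, Irf7, Isg15, Oas2 and Rsad2). Without PBS replicate 6, 8 passed, Gbp2, Ifit2 and Irf9 being added, and with the choroid plexus covariate 3 did. Mean levels over the list were 7.70 to 8.35 in CON ASO and 7.28 to 8.25 in PBS. The PBS array at 8.25 was replicate 6, and the others reached 7.77, so 12 of 13 CON ASO arrays lay above the remaining PBS arrays.

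Oas2, an enzyme that answers double-stranded RNA by activating RNase L, was detected on all 13 CON ASO and 3 of 9 PBS arrays. Its level ran from 5.48 to 6.47 (median 6.09) against 5.01 to 6.11 (median 5.23), a rise of 0.77 ± 0.14 (adjusted p = 0.00117). Ifitm3, a membrane protein that blocks virus entry, ran from 11.41 to 11.91 (median 11.70) against 10.57 to 11.89 (median 10.89), a rise of 0.67 ± 0.14 (adjusted p = 0.00581). All CON ASO arrays exceeded the 8 PBS arrays other than replicate 6, the highest of which was at 11.23. Rsad2, the antiviral enzyme viperin, rose by 0.65 ± 0.15 (adjusted p = 0.0107), and 11 of 13 arrays lay above every PBS array. Isg15, a ubiquitin-like modifier, rose by 0.60 ± 0.15 (adjusted p = 0.0322). Irf7, the transcription factor that amplifies interferon production, rose by 0.59 ± 0.16 (adjusted p = 0.0363) and lost the call in 12 of the fits that left out 1 array.

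Upstream of these genes, 18 members of the nucleic acid sensing and Toll-like receptor list were tested and 2 rose, Irf7 and Myd88, the adaptor that most Toll-like receptors share (0.29 ± 0.07, adjusted p = 0.0249). The share of all named genes that passed as higher was 1.02%. Of 12 inflammatory cytokine and NF-kappaB genes 0 passed in limma (median 0.14), and without PBS replicate 6 Ccl5 and Icam1 did. Of 16 antigen presentation genes, H2-T23, a non-classical class I molecule, rose by 0.52 ± 0.12 on 1 of 2 probes (adjusted p = 0.0205). Without PBS replicate 6, Cd74, H2-Ab1 and H2-Eb1 of the class II pathway passed as well. Of 11 genes for oligonucleotide uptake, binding and RNase H 0 passed in limma, with a median of -0.02.

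**Figure D3:**
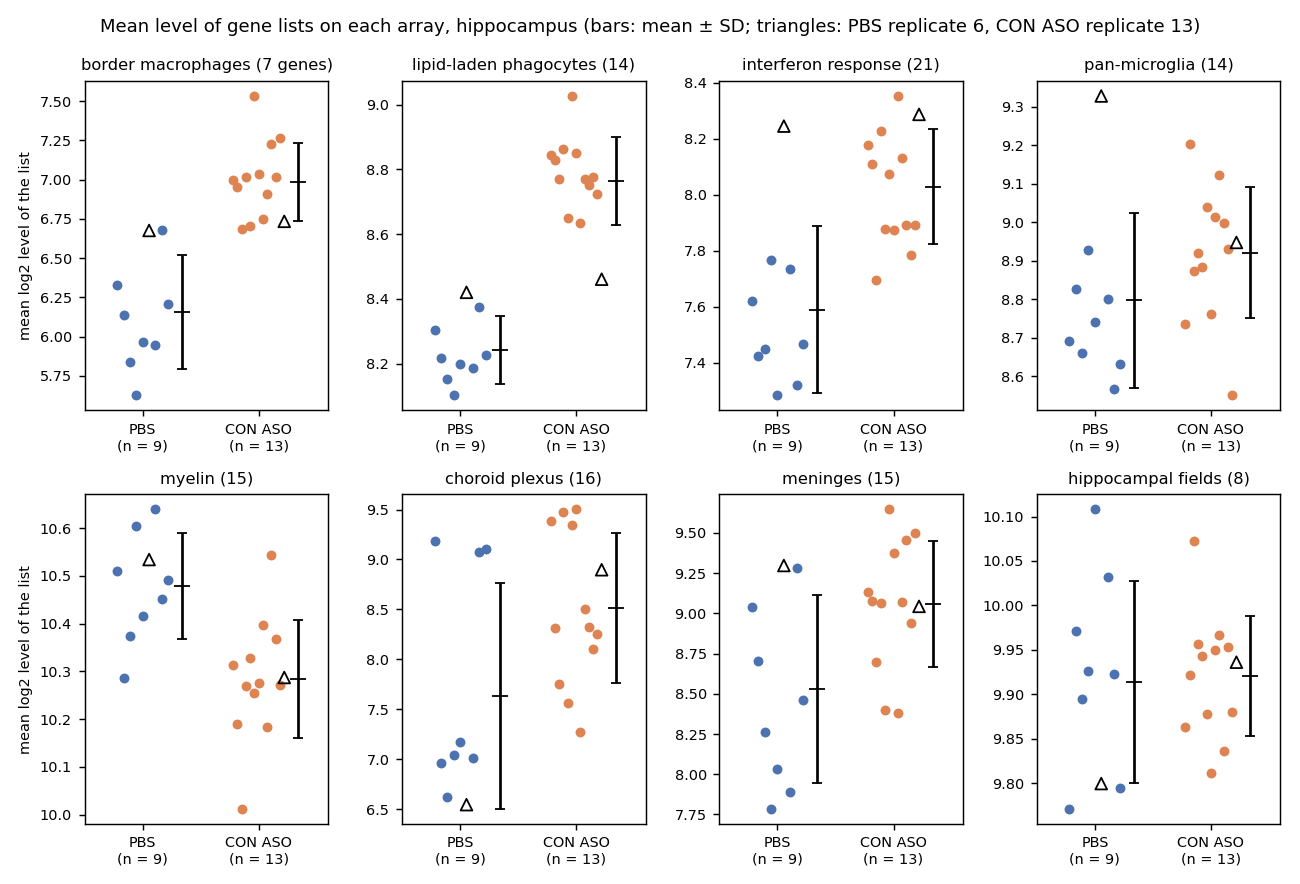
Mean log2 level of gene lists on each hippocampal array. The vertical axis is the mean log2 signal over the tested members, points are single mice given PBS (n = 9) or CON ASO (n = 13), bars give mean ± SD, and triangles mark PBS replicate 6 and CON ASO replicate 13. The border macrophage level is at 6.68 to 7.53 in CON ASO and 5.63 to 6.68 in PBS, and PBS replicate 6 is the highest PBS array for the pan-microglial (9.33) and interferon (8.25) lists.

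Start-site sequences were read for the passing interferon genes because a known element, the interferon-stimulated response element, can be searched as GAAA, 2 unspecified bases and GAAA again on both strands. In windows from 250 bases before to 50 after each start site, from RefSeq on build GRCm38.p6, these letters were found for 10 of the 81 higher genes with a window (12.3%), for 2 of 46 lower genes (4.35%), for 3.55% of tested genes and for 3.99% of all 27025 genes. Among the 4 passing interferon genes with a window, Isg15, Rsad2 and Ifitm3 held them, and so did Myd88 and H2-T23. The 200 bases before the start site are shown for Isg15, Rsad2, Myd88 and H2-T23, with the matched letters in capitals. The place of the match in the Ifitm3 window was not read out. The Isg15 window (chr4:156200819-156201018, minus strand) has 3 overlapping matches beginning 78, 72 and 66 bases before the start. Rsad2 (chr12:26456453-26456652, minus strand) has 1 at 120 bases on the opposite strand, Myd88 (chr9:119340019-119340218, minus strand) 1 at 40 bases and H2-T23 (chr17:36032702-36032901, minus strand) 1 at 124 bases on the opposite strand. A match describes the sequence and does not show that a factor binds there.
Isg15: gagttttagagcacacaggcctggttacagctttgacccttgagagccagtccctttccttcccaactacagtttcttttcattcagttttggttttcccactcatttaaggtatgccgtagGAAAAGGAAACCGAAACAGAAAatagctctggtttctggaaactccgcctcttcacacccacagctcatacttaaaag
Rsad2: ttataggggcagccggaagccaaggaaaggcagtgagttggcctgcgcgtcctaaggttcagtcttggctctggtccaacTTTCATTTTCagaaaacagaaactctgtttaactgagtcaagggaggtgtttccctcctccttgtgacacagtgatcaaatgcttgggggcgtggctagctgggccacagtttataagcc
Myd88: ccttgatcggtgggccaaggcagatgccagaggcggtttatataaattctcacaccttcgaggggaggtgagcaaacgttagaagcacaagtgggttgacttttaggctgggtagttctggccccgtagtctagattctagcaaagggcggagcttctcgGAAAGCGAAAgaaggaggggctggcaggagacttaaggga
H2-T23: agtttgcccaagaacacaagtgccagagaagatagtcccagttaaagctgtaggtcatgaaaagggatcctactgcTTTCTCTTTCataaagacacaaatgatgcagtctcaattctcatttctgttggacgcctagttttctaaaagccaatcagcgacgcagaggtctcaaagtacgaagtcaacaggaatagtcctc

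Targets of glucocorticoids and stress formed another group with several passing members. Of 20 tested, 6 rose (Cdkn1a, Plin4, Sgk1, Sult1a1, Tsc22d3 and Xdh) and 0 fell, with a median of 0.18. Over all named genes, 1.02% passed as higher and 0.597% as lower. Sgk1, a kinase induced by glucocorticoids, ran from 11.70 to 12.93 (median 12.40) in CON ASO and from 11.55 to 12.03 (median 11.67) in PBS. Of 13 CON ASO arrays 11 lay above every PBS array, with replicate 13 the lowest, and the rise was 0.64 ± 0.12 (adjusted p = 0.0011). Sult1a1, a sulfotransferase, ran from 8.56 to 9.94 (median 9.44) against 7.91 to 8.77 (median 8.44), a rise of 0.97 ± 0.15 (adjusted p = 1.11e-04). Cdkn1a, the cell-cycle inhibitor p21, rose on 2 of 3 probes, by 0.72 ± 0.14 on the brighter (adjusted p = 0.0025). Tsc22d3, the glucocorticoid-induced leucine zipper, rose by 0.27 ± 0.07 on 1 of 2 probes (adjusted p = 0.0338), and Xdh, xanthine dehydrogenase, by 0.47 ± 0.12 (adjusted p = 0.0339). Fkbp5, a feedback inhibitor of the receptor, differed by 0.22 ± 0.09 (adjusted p = 0.245). The list's mean level was 8.60 to 9.41 in CON ASO and 8.56 to 8.71 in PBS, with CON ASO replicate 13 at 8.60, the lowest of its group.

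The palindrome of the glucocorticoid response element, searched as AGAACA, 3 unspecified bases and TGTTCT, was found in the windows of 3 of 27025 genes (0.0111%). Sgk1 was the 1 gene among those tested that held it, 189 bases before the start (chr10:21993690-21993889, plus strand, match in capitals), and it is shown because Sgk1 is a leading member of the list.
Sgk1: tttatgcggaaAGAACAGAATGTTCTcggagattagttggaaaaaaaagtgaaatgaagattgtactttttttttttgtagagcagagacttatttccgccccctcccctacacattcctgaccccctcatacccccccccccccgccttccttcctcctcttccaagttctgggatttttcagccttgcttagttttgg

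Reactive astrocyte genes were higher throughout: 18 of 18, with a median of 0.24, where 4692 of all 10042 named genes were higher. Against 1.02% of all named genes passing as higher, 4 of the 18 passed. These were Lcn2, Hspb1, a small heat shock protein (0.80 ± 0.15, adjusted p = 0.00152), Cp, the ferroxidase ceruloplasmin (0.55 ± 0.14, adjusted p = 0.0304), and Emp1, an epithelial membrane protein (0.51 ± 0.13, adjusted p = 0.0402). Gfap, the intermediate filament of astrocytes, differed by 0.23 ± 0.16 (adjusted p = 0.577). With the choroid plexus covariate 1 of the 4 passed. The 13 general astrocyte markers had a median of 0.04 and 0 passed in limma.

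Some rises lay outside these lists. Apod, apolipoprotein D of oligodendrocytes and fibroblasts, ran from 12.15 to 13.13 (median 13.04) in CON ASO and from 11.77 to 12.52 (median 12.17) in PBS. It rose by 0.70 ± 0.12 (adjusted p = 2.93e-04), with 10 of 13 arrays above every PBS array. Slc6a12, a betaine and GABA transporter, rose by 1.12 ± 0.28 (adjusted p = 0.0276), which was 0.97 with the choroid plexus covariate (adjusted p = 0.0975). Anpep, aminopeptidase N of pericytes, and Ly6c1 of endothelium were the 2 of 18 vascular genes that rose, by 0.74 ± 0.14 (adjusted p = 0.00173) and 0.33 ± 0.08 (adjusted p = 0.0185). For comparison, 1.02% of all named genes passed as higher and 0.597% as lower. In the unfolded protein response list of 14, the transcription factor Xbp1 rose by 0.32 ± 0.05 (adjusted p = 2.6e-04) and the chaperone Creld2 by 0.36 ± 0.07 (adjusted p = 0.00474), while the asparagine synthetase gene Asns fell by 0.19 on 1 of 3 probes (adjusted p = 0.0251).

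Among the falls, Cort was the largest. It encodes cortistatin, a neuropeptide close to somatostatin that is made by a subset of inhibitory interneurons. One probe ran from 6.68 to 7.95 (median 7.34) in CON ASO and from 8.23 to 8.94 (median 8.56) in PBS, and the other from 7.07 to 8.74 (median 7.91) against 8.95 to 9.39 (median 9.13). On both probes every CON ASO array lay below every PBS array. Of 14449 probes, 3 separated the groups in that direction (0.0208%), the 2 of Cort and 1 of Zfp46, and 0 in the other (0%). The falls were -1.23 ± 0.22 (2.34-fold lower, adjusted p = 8.29e-04) and -1.19 ± 0.23 (adjusted p = 0.00259). WT PBS arrays were at 8.32 to 9.36 on the first probe, in the range of the APP/PS1 PBS arrays or above it.

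Other interneuron genes moved less. Of 12 on the list, Cort and Cck, cholecystokinin, passed (Cck -0.16 ± 0.04, adjusted p = 0.0394), with a median of -0.12 over the list. The share of all named genes that passed as lower was 0.597%. Sst, somatostatin, differed by -0.26 ± 0.08 (adjusted p = 0.101). Npy, neuropeptide Y, was lower than every PBS array in 10 of 13 CON ASO mice and higher than every one in the remaining 3 (10.05 to 12.04 against 10.75 to 11.08), so its mean difference of -0.18 ± 0.25 (adjusted p = 0.827) averages both. The 14 general neuronal markers had a median of -0.03, the 17 immediate early genes 0.04, and 0 of either passed in limma. Zfp46, a zinc finger gene, ran from 10.54 to 10.93 (median 10.65) in CON ASO and from 10.93 to 11.16 (median 11.06) in PBS, and fell by 0.36 (SE 0.05, adjusted p = 3.61e-06).

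**Figure D4:**
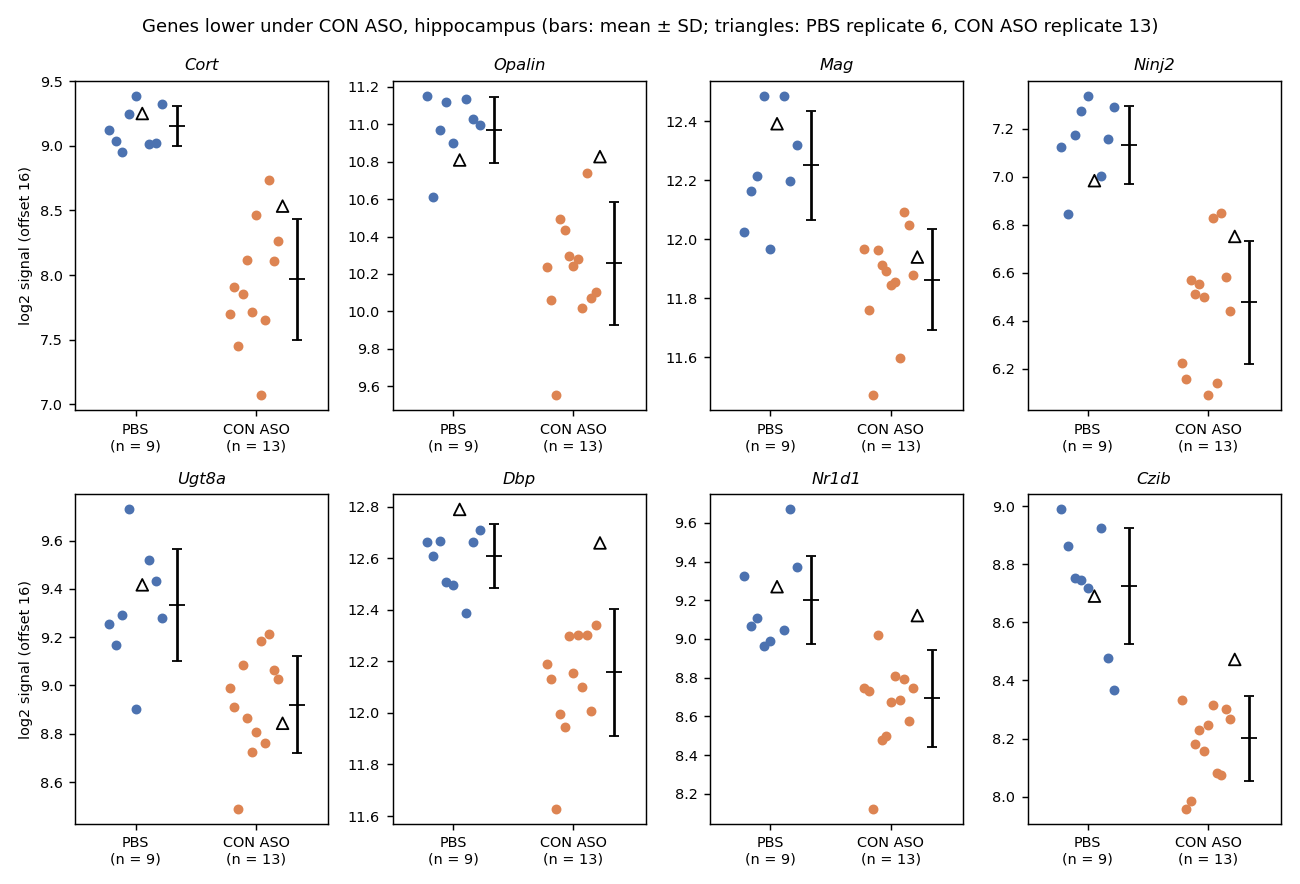
Genes lower under CON ASO in hippocampus, 1 panel per gene. Each point is 1 array with the log2 signal on the vertical axis, bars give mean ± SD for PBS (n = 9) and CON ASO (n = 13), and triangles mark PBS replicate 6 and CON ASO replicate 13. All 13 CON ASO arrays of Cort (brighter probe, 7.07 to 8.74) lie below the PBS arrays (8.95 to 9.39).

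Of 15 tested genes of myelinating oligodendrocytes, 13 were lower and 4 passed, all as falls (0.597% of all named genes passed as lower), with a median of -0.13. Opalin, a membrane protein of mature oligodendrocytes, ran from 9.55 to 10.83 (median 10.24) in CON ASO and from 10.61 to 11.15 (median 10.99) in PBS. It lay below every PBS array in 11 of 13 mice and differed by -0.71 ± 0.17 (adjusted p = 0.0232, and 0.0578 by median centring). Mag, the myelin-associated glycoprotein, ran from 11.47 to 12.09 (median 11.89) against 11.97 to 12.49 (median 12.22), a difference of -0.39 ± 0.09 (adjusted p = 0.0102). Ugt8a, which makes the myelin lipid galactosylceramide, differed by -0.41 ± 0.09 (adjusted p = 0.0043), and Cnp, a myelin enzyme, by -0.32 ± 0.08 on 1 of 2 probes (adjusted p = 0.0338).

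The main structural gene Mbp differed by -0.12 ± 0.04 and did not pass (adjusted p = 0.106), and neither did any of 5 tested precursor markers (median -0.07). Outside the list, Pllp, plasmolipin of myelin membranes, fell by 0.52 (SE 0.10, adjusted p = 0.00139) and lay below every PBS array in 11 of 13 mice. Ninj2, an adhesion molecule of glia, ran from 6.09 to 6.85 (median 6.51) against 6.84 to 7.34 (median 7.16) and was below every PBS array in 12 of 13 mice (adjusted p = 0.00299).

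Clock-controlled genes appeared among the falls, and a list of 17 tested circadian genes was therefore added after these values were seen. In it 4 fell and 1 rose, with a median of -0.09 (0.597% of all named genes passed as lower and 1.02% as higher). Dbp, a transcription factor whose RNA cycles daily, ran from 11.63 to 12.66 (median 12.15) in CON ASO and from 12.39 to 12.79 (median 12.66) in PBS. It was below every PBS array in 12 of 13 mice, replicate 13 being the exception, and fell by 0.45 (SE 0.08, adjusted p = 0.00112). The repressor Nr1d1 fell by 0.51 and 0.55 on its probes (adjusted p = 0.0036 and 0.0251), and the cold-inducible RNA-binding gene Cirbp by 0.50 (adjusted p = 0.00623). Nfil3, which opposes Dbp at shared sites, rose by 0.33 ± 0.07 (adjusted p = 0.00346).

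The repressor Ciart fell by 0.43 on 1 of 2 probes (adjusted p = 0.0454, and 0.0621 without PBS replicate 6). All mice were collected on 4 days that each held both groups, and no source used here gives the hour of collection. The palindrome CACGTG, the E-box bound by the clock's activators, was found in the windows of 8 of 46 lower genes (17.4%), 6 of 81 higher genes (7.41%), 11.5% of tested genes and 8.09% of all genes. Among the passing genes of the circadian list, Ciart alone had a match. Nr1d1 and Cirbp had windows without the palindrome, and no match was found for Dbp or Nfil3. Ciart is shown because it holds 3, beginning 116, 58 and 44 bases before the start (chr3:95882229-95882428, minus strand, matches in capitals).
Ciart: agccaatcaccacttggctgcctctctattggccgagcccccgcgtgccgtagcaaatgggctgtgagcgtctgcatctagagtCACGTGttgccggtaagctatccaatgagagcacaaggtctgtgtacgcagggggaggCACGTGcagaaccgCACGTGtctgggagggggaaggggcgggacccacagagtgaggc

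A further 2 motifs were searched in the same windows. The AP-1 site TGANTCA was present for 14 of 81 higher genes (17.3%), 1 of 46 lower genes (2.17%), 6.64% of tested genes and 8.97% of all genes. The NF-kappaB-like letters GGG, 5 unspecified bases and CC were present for 71.6% of higher, 80.4% of lower and 70.7% of tested genes, and for 53.5% of all genes.

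Czib, a zinc-binding protein gene, separated the oligonucleotides. It ran from 7.96 to 8.47 (median 8.23) in CON ASO and from 8.37 to 8.99 (median 8.75) in PBS, and fell by 0.52 (SE 0.08, adjusted p = 7.81e-05). The other probe of Czib differed by -0.14 ± 0.05 (adjusted p = 0.221). Under CD33 ASO the first probe was at -0.04 against PBS (adjusted p = 0.879) and 0.48 above CON ASO (adjusted p = 2.53e-04).

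The second oligonucleotide was set beside the first with the caution that both share the PBS arrays. CD33 ASO against PBS gave 73 probes (0.505%), and CD33 ASO against CON ASO, which tests the difference between the oligonucleotides, gave 17 (0.118%). The leading rises were smaller under CD33 ASO: Fcna was at 0.54 against PBS (adjusted p = 0.194) and 1.33 lower than under CON ASO (difference -1.33, adjusted p = 2.27e-06). Gpnmb was at 0.69 (adjusted p = 0.0565) and differed from CON ASO by -0.99 (adjusted p = 4.96e-04), and Lgals3 at 1.03 (adjusted p = 0.048) and by -1.11 (adjusted p = 0.0228).

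Plin4 was at 0.83 against PBS (adjusted p = 0.145) and differed from CON ASO by -1.27 (adjusted p = 0.00388). Ms4a7 was at 0.49 (adjusted p = 0.253) and differed by -1.02 (adjusted p = 5.45e-04). Anpep was at 0.01 (adjusted p = 0.993) and differed by -0.73 (adjusted p = 0.0018). Each of these genes therefore differed between the oligonucleotides. For Cort, CD33 ASO was at -1.19 against PBS (adjusted p = 0.00576) and at 0.04 ± 0.20 against CON ASO (adjusted p = 0.991), so no difference between the oligonucleotides was detected beyond that error. Opalin was at -0.80 (adjusted p = 0.025) and -0.09 ± 0.16 (adjusted p = 0.99).

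The same 13 and 9 mice gave frontal cortex. There 377 probes passed (2.63%). Of the 187 hippocampal probes 183 were tested in cortex, 178 had the same sign, and 71 passed in both tissues, all with the same sign, which is 38.0% of the hippocampal and 18.8% of the cortical calls. Fcna rose by 1.37 in cortex, Gpnmb by 1.33, Lgals3 by 1.91, Plin4 by 2.10 and Ms4a7 by 1.14. Because the tissues come from the same mice, these are not independent replications.

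The interferon list had a cortical median of 0.07 with 0 of 21 passing in limma, against 0.44 and 5 in hippocampus, but none of the 21 genes passed the test of a difference between tissues described next. Myelin genes had a cortical median of -0.17 with 6 falls (1.48% of cortical probes passed as lower), and the glucocorticoid list a cortical median of 0.18 with 6 rises (1.15% passed as higher).

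**Figure D5:**
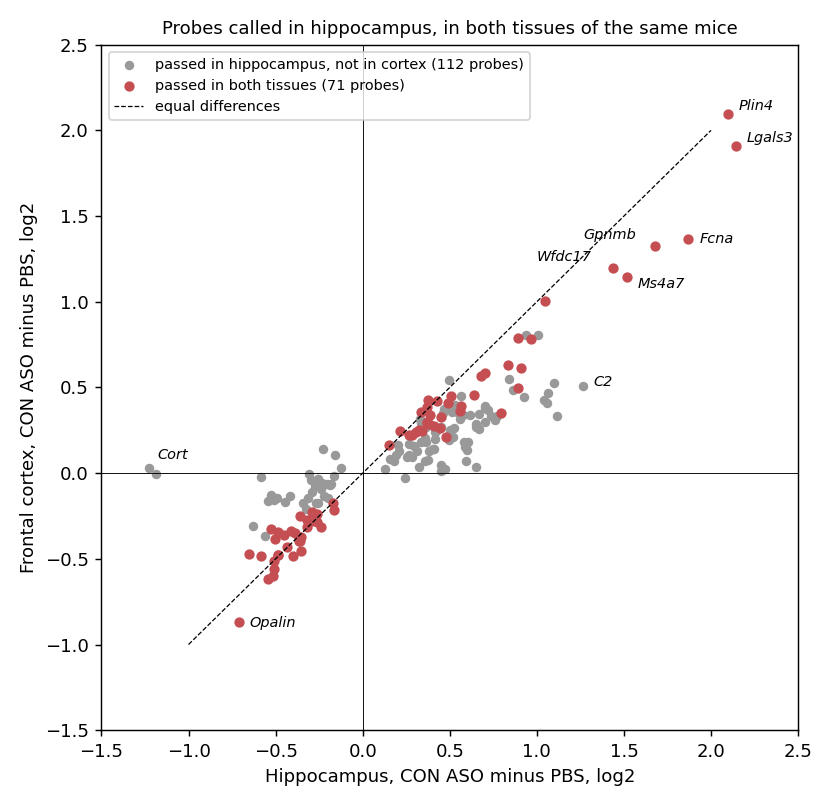
Log2 difference CON ASO minus PBS in hippocampus (horizontal) and in frontal cortex (vertical) for the 183 probes called in hippocampus and tested in both tissues. Points are probes, colours tell the 71 that also passed in cortex from the 112 that did not, and the dashed line marks equal differences. Lgals3 and Plin4 are at the upper right (2.14 and 2.10 in hippocampus, 1.91 and 2.10 in cortex), and Cort lies at -1.23 in hippocampus and 0.03 in cortex.

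The effect of CON ASO was tested for a difference between tissues with the mouse as a random block. Of 14884 probes 10 passed (0.0672%), 1 higher (0.00672%) and 9 lower (0.0605%) in hippocampus relative to cortex, and 1586 had an unadjusted p under 0.05. Cort was among them: its hippocampal fall exceeded the cortical difference by -1.24 ± 0.26 (adjusted p = 0.0304). Crhbp, the binding protein of corticotropin-releasing hormone, was at -0.27 in hippocampus and 0.34 in cortex, a difference of -0.62 ± 0.13 (adjusted p = 0.0304). Rap2a, a small GTPase, was at -0.23 and 0.14 (difference -0.36 ± 0.07, adjusted p = 0.0284). Without the mouse block 0 probes passed in limma.

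Arrays were spread over 6 chips and 4 collection days, each holding both groups. Of the 187 probes, 94.1% to 100% kept their sign within a chip and 96.3% to 100% within a day. The 187 were called from these same arrays, so agreement in direction was largely set in advance. With 1 to 3 arrays per group on a chip, these are counts of direction and no test.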

How the data were processed

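Total RNA of whole hippocampus (46 arrays) and frontal cortex (45 arrays) was read on Illumina bead arrays, per the labels. Per the file headers, each array has an intensity and a detection p-value for each of 25697 probes in the deposited signals. Between 22.9% and 26.7% of an array's deposited intensities were negative, which shows an earlier background subtraction (method not given in the sources used here). Software named in the submitters' processing notes was BeadStudio, GenomeStudio and Partek. The submitters' deposited value table holds 17885 probes on a log2-like scale, equal in distribution within each tissue (hippocampal median 7.23), with its offset and background step unknown; it was used as an alternative.

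Intensities were normalized per tissue with neqc of limma 3.58.1 (R 4.3.3), using quantile normalization, a log2 scale and an offset of 16. Probes with detection p under 0.05 on at least 9 hippocampal arrays were kept. limma was fitted with 1 mean per group over 4 groups, empirical Bayes moderation (trend and robust), two-sided, at a Benjamini-Hochberg adjusted p of 0.05, and was tested on simulated data. Precision is limited by how many arrays a group has. The difference between tissues was tested on all 91 arrays normalized together, with a random block for the mouse (correlation 0.169, statmod 1.5.0). Correlations between tissues were computed in Python 3.11.15 with numpy 2.4.6 and pandas 2.3.3, and figures were drawn with matplotlib 3.10.9.

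Groups and replicate numbers came from the titles, and replicates are separate mice. The treatment text counts 8 PBS APP/PS1 mice where titles hold 9, and the titles were used. Array annotation gave 16814 probes 1 gene symbol, 0 several and 8883 none. A list's median uses the brightest probe of each gene, and a gene passed where any of its probes did.

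The members, gene lists and tests were chosen with earlier results of these data known. The rule for named genes took Cd33, of the genes that passed those with the 15 largest rises and the 15 largest falls, up to 3 passing members of smallest p per list (up to 2 for lists with none), and 5 genes for the tissue difference. Apod, Alox5ap, Zfp46, Cirbp, Ciart, Trem2, Cst7, Gfap, Mbp, Sst, Npy, Fkbp5, Mrc1, Dab2, Ttr, Prox1, Wfs1, Fibcd1, Tmem119, Ctsh and list members beyond the third were named after their values were seen. Promoter windows were read from a RefSeq table on GRCm38.p6, in which 8133 of the 10042 tested genes had a window. Sequences of mouse chromosome 18 were left out.

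Alternatives were no background correction, median centring, joint normalization, the submitters' value table, a stricter filter (detection p under 0.01 on a share of 0.5 of arrays) or none, array weights, a block for chip, day or replicate number, a fit of the compared groups only, no CD33 ASO arrays, no trend or robust moderation, 1 probe per gene, an offset of 50, and each array left out. The choroid plexus covariate and leaving out both arrays that stood apart were added after the data were seen.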

Additional observations from a re-analysis of the deposited data

Results flagged for a closer look

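Among 94 groups of 9 PBS values tested for an array that stands apart, 16 were picked out, 14 of them at PBS replicate 6 and 2 at PBS replicate 5; chance picks out about 1 in 20 groups. PBS replicate 6 held the highest PBS log2 signal of the immune genes C1qc (11.91, next highest 11.32), Fcer1g (11.51, next 10.98), Fcgr4 (8.22, next 6.38), Lyz1 (12.17, next 11.06), Lyz2 (10.52, next 9.45), Ms4a6d (8.30, next 6.91), Gpnmb (9.62, next 9.23) and Cyp4f18 (5.98, next 5.21). The same array was highest for the interferon-stimulated Ifitm3 (11.89, next 11.23) and Oas2 (6.11, next 5.55), the class I gene H2-T23 (9.88, next 9.07), the adhesion molecule Icam1 (8.06, next 7.39), the chemokine Cxcl16 (7.92, next 7.15) and Lcn2 (7.25, next 5.04). For Fcgr4, Lcn2, C1qc, H2-T23 and Icam1 it lay above every CON ASO array. PBS replicate 5 was the lowest PBS array for the immediate early gene Egr2 (5.04, next 5.43) and the highest for the tubulin gene Tuba3a (7.04, next 6.56).

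The effect of CON ASO differed between hippocampus and cortex, by the interaction test, for Cort (-1.24), Crhbp (-0.62), Rap2a (-0.36), Tuba3a (-0.67, with -0.42 in hippocampus and 0.26 in cortex, adjusted p = 0.0284) and 1700016K19Rik (0.88, with 0.42 and -0.46, adjusted p = 0.0284). Neither Tuba3a nor 1700016K19Rik passed in hippocampus on its own (adjusted p = 0.0568 and 0.164).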

How the results depend on the processing

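Among genes picked by the naming rule, none that passed changed sign under an alternative fit across days or with 1 array left out. Within single collection days, 96.3% to 100% of the 187 probes kept their sign. The majority of calls turned from higher to lower with the chip or the replicate number as a block. The count of 187 probes (119 higher, 68 lower) stayed within 1.5 times, at 152 to 248, under the following alternatives. They were no background correction, joint normalization, the submitters' value table, no filter, the stricter filter and the day as a block. The compared groups alone, no CD33 ASO arrays, no trend or robust moderation, 1 probe per gene and an offset of 50 were the others. The probes themselves changed more. Of the calls 138 of 170 were among the 187 with the compared groups alone, 139 of 152 with no filter and 155 of 175 with 1 probe per gene. Median centring left 128 (24 lower). Array weights gave 477 (261 higher, 216 lower), and the chip as a block 323 (170 lower, 47.4% higher). The replicate number as a block gave 415 (239 lower, 42.4% higher); same-numbered arrays correlated at -0.42 to 0.42, 5 of 9 over 0.1, and 2 correlated best with their own number, so the numbers do not pair the samples. The choroid plexus covariate left 76 higher (127 in all), and leaving out both arrays that stood apart gave 182 higher (275 in all). Each array left out in turn gave 108 to 237 (71 to 162 higher, 37 to 92 lower). Within single collection days, limma passed 6 (6 higher, 0 lower), 0 (0 and 0), 1 (1 and 0) and 32 (30 and 2) on days 1 to 4, with 2 or 3 PBS and 3 or 4 CON ASO arrays each. Without the mouse block the tissue difference had 0 passing probes, against 10. Of the named genes, Fcgr4, Sparc, Lcn2, Cck, Irf7 and Pkd2l1 lost the call most often; the cause of these shifts was not tested. Dim probes such as Fcna, Folr2, Lcn2, Cyp4f18 and Oas2 were detected on few PBS arrays, and their folds are understated by the offset.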

Other observations

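The CON ASO mice whose hippocampus had high Plin4 were also those with high cortical Plin4. Across the 13 mice, Pearson's r between tissues was 0.943 (permutation p = 1e-05, the smallest that 100000 permutations can give, adjusted 5e-05 over 5 relations) and Spearman's rho 0.918 (adjusted permutation p = 3e-04). Without the 2 mice farthest from the hippocampal median, replicates 11 and 13, r was 0.889 (permutation p = 4.5e-04). Both arrays of a mouse share its pump.

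For Fcna, Ms4a7 and Lgals3 the relation rested on replicate 13: without that mouse alone r was 0.0274, 0.0583 and 0.268. For Gpnmb it was 0.483 without that mouse and for Plin4 0.913. Over all 13 mice Pearson's r was 0.812 for Gpnmb (adjusted permutation p = 0.0097), 0.828 for Lgals3 (0.025), 0.761 for Fcna (0.0357) and 0.663 for Ms4a7 (0.0357), with Spearman's rho of 0.637, 0.407, 0.258 and 0.0604 (adjusted permutation p = 0.0559, 0.283, 0.495 and 0.85). Without the 2 mice farthest from the hippocampal median r was 0.329, 0.302, -0.186 and -0.0642, in the same order. Permutation p there was 0.323, 0.377, 0.591 and 0.847, so none of the 4 relations was detected. Leaving out the extreme mice narrows the range, so this cannot show that a relation is absent. The mouse of hippocampal CON ASO replicate 13 was lowest for these genes in cortex too, where its array bears another replicate number.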
